A study of Mus musculus with 4 samples.

Results

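The Kruppel-like factors described here are 10 mouse transcription factor genes, Klf2, Klf3, Klf4, Klf5, Klf6, Klf7, Klf9, Klf10, Klf12 and Klf13. With earlier results of these data known, they were chosen by name from the gene symbols of the array. Every probe set (the group of short probes that measures a transcript) with a single symbol among these names was taken, which gave 10 genes of 18194 and 38 probe sets of the 34945 that had a single symbol. The groups are SOCS3 null embryonic stem (ES) cells, which lack the suppressor of cytokine signalling SOCS3, with 2 arrays, and wildtype ES cells with 2 arrays. Both were profiled from total RNA, and the keywords that the submitters gave name leukemia inhibitory factor (LIF), SHP2, ERK1/2 and endoderm. No clone, passage, culture medium or feeder layer is given for either genotype, nor is it stated whether the 2 arrays of a genotype are separate cultures. The p-values below therefore reflect the spread among arrays alone, and that spread may be technical.

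KLF proteins bind GC-rich and CACCC-containing DNA through zinc fingers at their C-terminal end, and members differ in whether they activate or repress. In mouse ES cells Klf2, Klf4 and Klf5 have overlapping roles in keeping the cells undifferentiated. LIF acts through its receptor, JAK kinases and STAT3 to raise Klf4 and Klf5, whereas Klf2 transcription in these cells depends mainly on Pou5f1 (Oct4), and SOCS3 is a feedback inhibitor of the LIF receptor. The comparison therefore sets these LIF-linked genes, Klf2 among them by its role, against the other 7 members.

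The DNA just before the start of each gene is given for the members on which the results turn, to show what kind of sequence lies there. RefSeq promoter sequences of build GRCm38.p6 matched 8 of the 10 members, all but Klf5 and Klf10, and the 250 bases before the start given there were used. For Klf7 and Klf12 that start lies inside the gene's RefSeq span and not at its outer end, so their windows belong to an inner start. The windows shown are those of Klf2 at chr8:72318812-72319061 on the + strand, of Klf4 at chr4:55532476-55532725 on the - strand and of Klf6 at chr13:5861239-5861488 on the + strand. They are written 5′ to 3′ along the gene, and capitals mark a GC box (GGGCGGG) or a CACCC box (CCACCC) on either strand.
Klf2: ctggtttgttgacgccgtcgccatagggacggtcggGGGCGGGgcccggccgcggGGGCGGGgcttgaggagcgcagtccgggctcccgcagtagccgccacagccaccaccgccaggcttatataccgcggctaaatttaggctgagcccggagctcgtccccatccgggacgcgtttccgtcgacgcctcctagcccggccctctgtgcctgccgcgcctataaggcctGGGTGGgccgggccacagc
Klf4: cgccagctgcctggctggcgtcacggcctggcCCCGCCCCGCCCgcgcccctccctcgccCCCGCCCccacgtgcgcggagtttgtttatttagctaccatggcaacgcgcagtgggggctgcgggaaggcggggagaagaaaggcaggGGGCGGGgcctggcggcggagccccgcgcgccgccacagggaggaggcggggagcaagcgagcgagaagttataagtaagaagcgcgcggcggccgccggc
Klf6: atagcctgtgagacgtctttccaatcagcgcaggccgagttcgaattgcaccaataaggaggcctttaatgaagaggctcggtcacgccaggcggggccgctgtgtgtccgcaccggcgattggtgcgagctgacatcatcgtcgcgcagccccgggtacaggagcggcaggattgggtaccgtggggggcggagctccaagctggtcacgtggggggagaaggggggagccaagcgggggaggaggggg
The Klf2 window holds 2 GC boxes and 1 CACCC box, the Klf4 window holds 4 GC boxes, of which the first 2 share bases, and the Klf6 window holds neither motif. A GC box stands in 4 of the 8 KLF windows and in 23.4% of all 32851 promoter windows of this length. A CACCC box stands in 4 of the 8 and in 28.1% of all, and the window of Klf13 holds a GC box and a CACCC box that overlap. The STAT motif TTCNNNGAA stands in 1 of the 8, as TTCTGCGAA in the window of Klf9 at chr19:23140976-23141225, and in 7.02% of all windows. These matches describe the letters of a short window.

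All values below are the intensities deposited by the authors, with 75th percentiles of 119.8 and 119.3 on the SOCS3 null arrays and of 116 and 115 on the wildtype arrays. Socs3, the targeted gene, read 19.3 and 12.9 on the SOCS3 null arrays, against 3024 and 1884 on the wildtype arrays. Of 5 ES cell markers Sox2 fell and the other 4 did not pass. Pou5f1 read 11567 and 10524 in SOCS3 null cells and 10524 and 11675 in wildtype cells, with overlap, while Nanog, Esrrb and Zfp42 lay lower on both SOCS3 null arrays. Of 10 primitive endoderm markers 9 rose in SOCS3 null cells (Hnf4a did not pass the test). The summed intensity of the 10 was 29635 and 29965 in SOCS3 null cells, against 733 and 777 in wildtype cells. Lama1 and Col4a1 made up most of that sum on every array. Some of the 9, such as Sox17 and Foxa2, passed the filter only through the SOCS3 null arrays. The neuroectoderm markers summed to 189 and 186 in SOCS3 null cells and 723 and 729 in wildtype cells, and the 1 mesoderm marker tested, Snai1, rose. Of the blood and endothelial markers, Cd68 read 266 and 195 in SOCS3 null cells and 101 and 90.4 in wildtype cells and made up most of a list sum of 354 and 284 in SOCS3 null cells and 148 and 131 in wildtype cells. Tek rose too, Cdh5 passed the filter only through the SOCS3 null arrays, and Ptprc lay below it. Of 6 fibroblast markers tested 0 passed in limma, with 1 at an unadjusted p under 0.05. In RNA from whole cultures, fewer cells of a type and less RNA per cell cannot be told apart. The part of any of these cell types in the KLF values was not tested.

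Of the 10 members, Klf5 and Klf6 rose and Klf2 fell in SOCS3 null cells, while the other 7 did not pass the test. The test was limma on log2(intensity + 16), with 1 row for each gene (its brightest probe set) and a Benjamini-Hochberg adjusted p under 0.05 over all 12732 genes tested. Of all genes tested 22.7% were called, 13.1% higher and 9.55% lower, so 3 of 10 members is near the background. The LIF-linked genes moved in different directions: Klf5 was up, Klf2 was down and Klf4 lay near 0, with a median log2 change of -0.02. The median of the other 7 members was -0.11, and that of all genes tested was -0.00496. Both SOCS3 null arrays lay above both wildtype arrays for Klf5 and Klf6 and below them for Klf2, Klf3, Klf9 and Klf12, which is 6 of 10 members, where 65.8% of all genes tested had arrays that did not overlap (32.3% above and 33.6% below). The change was below 0 for 8 of the 10 members and above 0 for Klf5 and Klf6. By probe set, 33 of the 38 passed the filter on dim values and 3 of these were called, all higher (9.09%), against 15.9% of all probe sets tested (8.55% higher and 7.3% lower). The 3 were 1 of Klf5 and 2 of Klf6. With any 1 of the 4 arrays left out, 1 genotype has a single array, assumed to vary like the other genotype, with 1 residual degree of freedom. Limma then called 0 of all genes, Socs3 included, so these fits say nothing about the stability of a call.

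**Figure D1:**
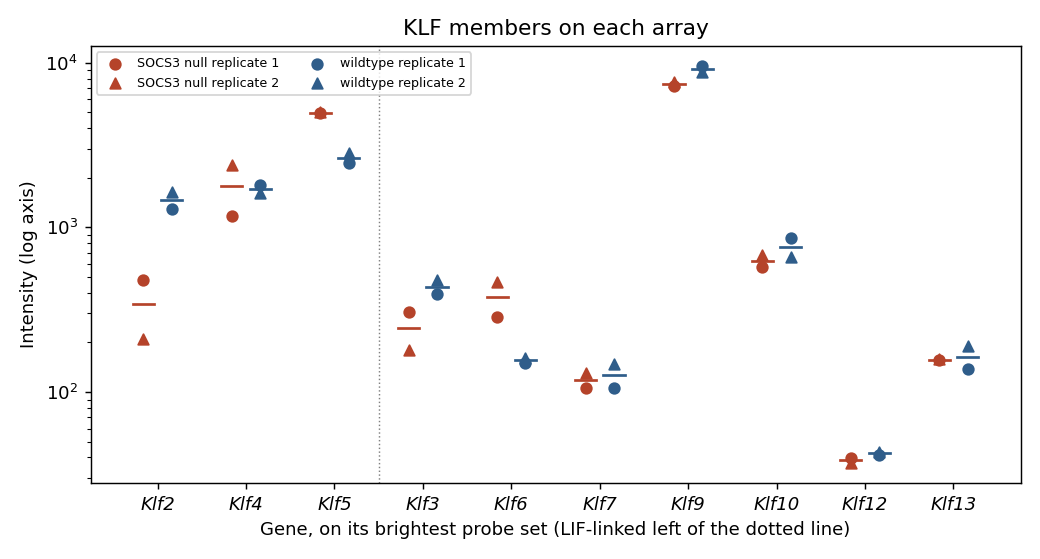
Intensity (log axis) of each KLF member on its brightest probe set, with SOCS3 null arrays in red left of wildtype arrays in blue, circles for replicate 1, triangles for replicate 2 and a bar at the group mean. Klf5 and Klf6 are higher and Klf2 is lower on both SOCS3 null arrays, and the Klf4 arrays overlap, with SOCS3 null values of 1178 and 2411; heights of different genes are not comparable, because they come from different probes.

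Klf2, a zinc finger factor of naive ES cells and of endothelium and lymphocytes, is represented by 1 probe set (1448890_at). Its intensity was 477 and 211 on the SOCS3 null arrays and 1294 and 1648 on the wildtype arrays. Every SOCS3 null value was thus below every wildtype value, and the SOCS3 null arrays differed from each other by 2.26 times. The means were 344 ± 188 in SOCS3 null cells and 1471 ± 250 in wildtype cells (SD, n = 2 each), a ratio of 0.234. On the log2 scale Klf2 changed by -2.14 (SE 0.43, limma adjusted p = 0.0406 over genes). Over all probe sets the same measurement had a limma adjusted p of 0.0554, and over genes it was 0.0536 with a pseudocount of 64 and 0.122 with no filter on dim rows, so Klf2 lost its call under these settings.

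Klf5, a target of LIF and STAT3 that mouse embryos also need to form trophectoderm, rose. On its brightest probe set (1451021_a_at) it read 4938 and 5045 on the SOCS3 null arrays and 2452 and 2827 on the wildtype arrays. The SOCS3 null arrays differed from each other by 1.02 times, the closest pair among the 3 LIF-linked genes. The means were 4992 ± 76.0 in SOCS3 null cells and 2640 ± 265 in wildtype cells (SD, n = 2 each), which is 1.89-fold higher. The log2 change was 0.92 (SE 0.11, limma adjusted p = 0.0141 over genes and 0.0199 over probe sets). A dimmer probe set of Klf5 read 185 and 263 in SOCS3 null cells and 137 and 123 in wildtype cells, again with no overlap. Its log2 difference was 0.70 (SE 0.19), which did not pass over all probe sets (limma adjusted p = 0.0962). A further probe set stayed between 8.59 and 8.74 on the SOCS3 null arrays and between 9.01 and 9.03 on the wildtype arrays, below the filter, and was not tested. Of 6 trophoblast markers 4 were tested, Eomes rose, Tfap2c fell, and the median log2 difference of the 4 was 0.66, with Gata3 tested only through its SOCS3 null values. All but Tfap2c read higher on both SOCS3 null arrays, Cdx2 and Elf5 below the filter among them. The list summed to 620 and 699.7 in SOCS3 null cells and 1037 and 1272 in wildtype cells, and Tfap2c, at 468 and 506 in SOCS3 null cells and 955 and 1199 in wildtype cells, made up most of that sum. The part of these cells in the Klf5 values was not tested.

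Klf4, the member that LIF and STAT3 raise most directly and a factor used in reprogramming, did not pass the test. On 1417394_at it read 1178 and 2411 on the SOCS3 null arrays, against 1801 and 1614 on the wildtype arrays, so that SOCS3 null replicate 1 lay below both wildtype arrays and replicate 2 above both. Its log2 change was -0.02 (SE 0.38, limma adjusted p = 0.983). A second Klf4 probe set (1417395_at) showed the same split, with 621 and 1308 in SOCS3 null cells and 927 and 964 in wildtype cells. The SOCS3 null arrays differed by 2.05 times on the first and by 2.11 times on the second probe set. Both are annotated to the same source sequence, so they are not independent measurements of the gene. The Klf4 difference was 0.50 when SOCS3 null replicate 1 was left out, 0.06 when wildtype replicate 1 was and -0.53 when SOCS3 null replicate 2 was, so its sign depended on which array was left out.

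Klf6, an early-response factor that mouse embryos need for yolk sac vessels and blood formation, rose. Of its 5 probe sets, all read higher on both SOCS3 null arrays, but the dimmest (1459718_x_at) passed the filter only through those arrays and adds no support. The brightest (1427742_a_at) read 287 and 464 on the SOCS3 null arrays and 150 and 162 on the wildtype arrays. Means were 376 ± 125 in SOCS3 null cells and 156 ± 8.15 in wildtype cells (SD, n = 2 each), or 2.41-fold higher. Klf6 changed by 1.15 on the log2 scale (SE 0.25, limma adjusted p = 0.0487 over genes). Over probe sets that measurement did not pass (adjusted p = 0.0644), while 2 others did: 1447448_s_at at 184 and 257 in SOCS3 null cells and 78.8 and 81.9 in wildtype cells, and 1418280_at at 71.4 and 84.9 in SOCS3 null cells and 27.0 and 39.4 in wildtype cells. Their log2 changes were 1.28 (SE 0.18, limma adjusted p = 0.0291) and 0.94 (SE 0.17, limma adjusted p = 0.0441). By its design, shown by _s_at in the name, the first of these may also match other transcripts. The probe set with 178 and 332 in SOCS3 null cells and 93.4 and 80.1 in wildtype cells had a log2 difference of 1.34 and did not pass (SE 0.32, limma adjusted p = 0.0753). The dimmest read 12.4 and 15.7 in SOCS3 null cells, against 10.5 and 10.3 in wildtype cells. It is annotated to the same source sequence as 1447448_s_at. Over genes Klf6 did not pass with a pseudocount of 64 (adjusted p = 0.0722), after quantile normalization (0.0535) or with no filter (0.134).

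**Figure D2:**
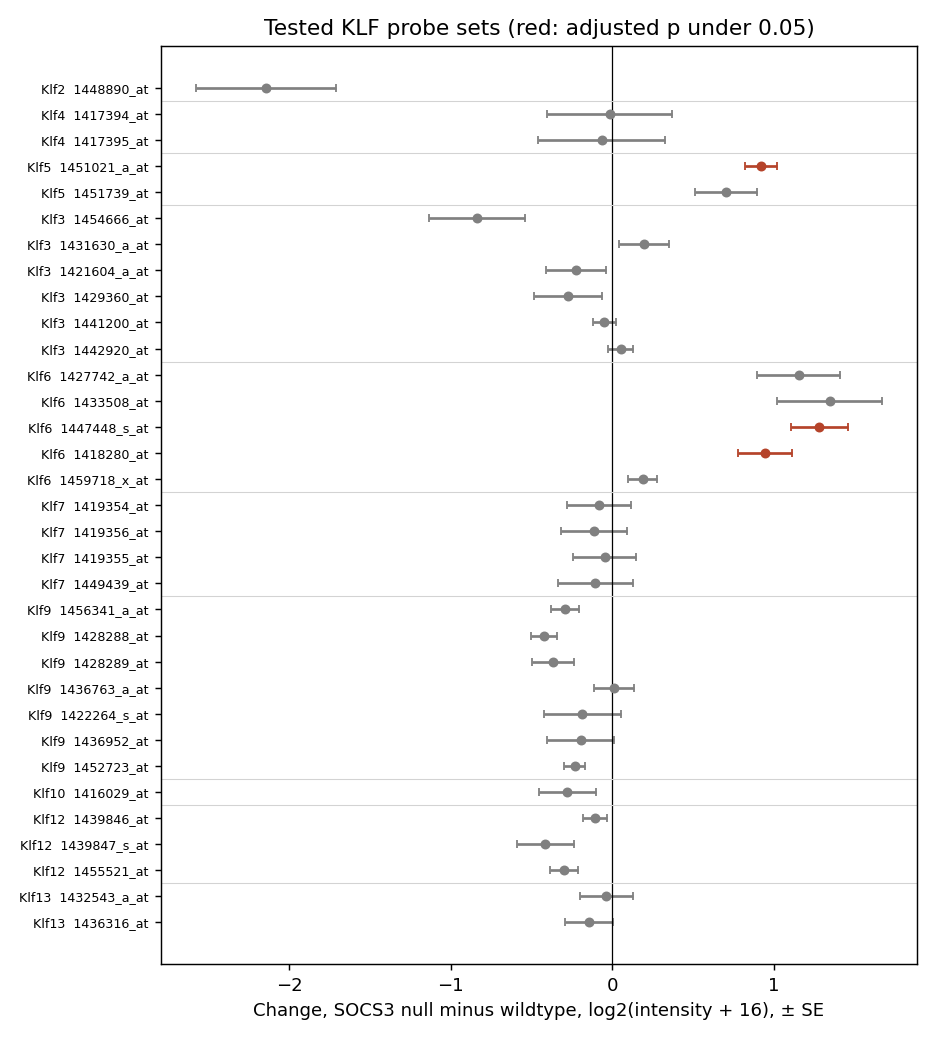
Change of each of the 33 tested KLF probe sets (SOCS3 null minus wildtype, on the log2(intensity + 16) scale, with bars of ± SE), grouped by gene and ordered by brightness within a gene, with red for an adjusted p under 0.05 over all probe sets. The Klf5 and Klf6 probe sets lie to the right of 0 (the dimmest of Klf6, 1459718_x_at, passed the filter only through the SOCS3 null arrays), the Klf2 probe set lies at -2.14, and the probe sets of Klf3 lie on both sides of 0.

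Klf3, which represses CACCC-containing genes through the corepressor CtBP, gave different values on different probe sets. The brightest (1454666_at) read 308 and 179 on the SOCS3 null arrays and 393 and 479 on the wildtype arrays, with a log2 change of -0.84 (SE 0.29, limma adjusted p = 0.123 over genes). The next in brightness read 224 and 293 in SOCS3 null cells and 216 and 228 in wildtype cells, a change of 0.19. The groups overlapped there, as they did on the probe sets that changed by -0.23 and -0.28. With the mean of all Klf3 probe sets the change was -0.17, so the size of the Klf3 difference rests on the probe set chosen. Of the other 3 of its 7 probe sets, 2 were tested and dim, between 13.1 and 30.8 on every array, with changes of -0.05 and 0.05, and 1 lay below the filter.

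Klf9, which thyroid hormone and glucocorticoids induce in several tissues, did not pass the test. Its brightest probe set (1456341_a_at) read 7245 and 7691 on the SOCS3 null arrays and 9595 and 8739 on the wildtype arrays, with no overlap. The log2 change was -0.29 (SE 0.09, limma adjusted p = 0.106 over genes, unadjusted p = 0.0368). Of its 7 probe sets 4 lay lower on both SOCS3 null arrays. Among them was 1428288_at with 2210 and 2344 in SOCS3 null cells and 3171 and 2947 in wildtype cells, with a change of -0.42 (SE 0.08, limma adjusted p = 0.0521). It is annotated to the same source sequence as 1428289_at and 1452723_at, also among the 4, so these are not independent measurements. Of these, 1452723_at was dim, with 10.5 and 10.6 in SOCS3 null cells and 15.1 and 15.3 in wildtype cells. On the 3 probe sets outside the 4 the arrays of both genotypes overlapped, with changes from -0.20 to 0.01.

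The remaining members did not pass the test on any probe set. Klf10, a repressor induced by TGF-beta, read 574 and 676 in SOCS3 null cells and 866 and 665 in wildtype cells, with a change of -0.28 (SE 0.17, limma adjusted p = 0.327). Klf7, known for its role in the growth of nerve axons, read 106 and 130 in SOCS3 null cells and 106 and 148 in wildtype cells, and the changes of its 4 probe sets ran from -0.11 to -0.05. In all 4 the arrays of the genotypes overlapped. These 4 are annotated to the same source sequence, so they are not independent measurements. Klf13, an activator of the chemokine gene Ccl5 in T cells, read 156 and 159 in SOCS3 null cells and 139 and 189 in wildtype cells, a change of -0.04 (SE 0.16, limma adjusted p = 0.897). Klf12, a repressor of the gene of AP-2alpha, was dim, with 39.9 and 36.8 in SOCS3 null cells and 41.7 and 43.3 in wildtype cells. All 3 of its tested probe sets lay lower on both SOCS3 null arrays, by -0.11, -0.41 and -0.30, with limma adjusted p over probe sets from 0.111 to 0.411. Of these, 1439846_at and 1439847_s_at are annotated to the same source sequence, so they are not independent measurements. A further 2 probe sets of Klf12 and 1 of Klf13 lay below the filter, at 3.55 to 8.20 on every array. Over all 33 KLF probe sets tested, 7 lay higher and 10 lower on both SOCS3 null arrays, so that 17 did not overlap (51.5%), against 62% of all probe sets tested (27.2% higher and 34.8% lower). Among the 7 is 1459718_x_at of Klf6, which passed the filter only through the SOCS3 null arrays.

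The arrays of SOCS3 null cells differed from each other for 4 members. On the log2 scale, replicate 2 minus replicate 1 in SOCS3 null cells was -1.12 for Klf2, -0.73 for Klf3, 1.02 for Klf4 and 0.66 for Klf6, where the median size of this difference over all genes tested was 0.158. Larger differences were seen in 1.13% of genes for Klf2, 1.45% for Klf4, 3.72% for Klf3 and 5.03% for Klf6. On their brightest probe sets Klf2 and Klf3 were thus brighter on replicate 1, and Klf4 and Klf6 on replicate 2. Between the wildtype arrays the differences were 0.35 for Klf2, 0.27 for Klf3, -0.16 for Klf4 and 0.10 for Klf6. Klf5 differed by 0.03 between the SOCS3 null arrays and by 0.20 between the wildtype arrays.

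Fibroblast markers, which feeder cells would carry, also differed between the arrays of a genotype. Their summed intensity over 7 markers was 1299 and 773 on the SOCS3 null arrays and 648 and 1049 on the wildtype arrays. Col3a1, a collagen of fibroblasts, read 367 and 169 in SOCS3 null cells and 214 and 390 in wildtype cells. Within each genotype the array with more fibroblast signal was also the one with more Klf2 and Klf3 and with less Klf4, on the brightest probe sets. Klf4 on 1417395_at did not follow this in wildtype cells, with 927 and 964. Klf3 on 1431630_a_at did not follow it in SOCS3 null cells, with 224 and 293, while on 1421604_a_at and 1429360_at it did in both genotypes. On the brightest probe sets Klf12 ran like Klf2 and Klf9 and Klf10 ran like Klf4, whereas Klf5, Klf6, Klf7 and Klf13 were brighter on replicate 2 of both genotypes. Further probe sets did not all run this way: 1428289_at of Klf9 was brighter on replicate 2 of both genotypes, and 1439847_s_at of Klf12 on replicate 1 of both. The Klf12 differences were only -0.08 and 0.04, where the median sizes over all genes tested were 0.158 and 0.114. The share of all genes whose arrays run in these orders was not counted, so the orders are not shown to be particular to KLF members. The part of fibroblast RNA in these KLF values was not tested. Zfp42 (Rex1), a marker of naive ES cells, was named after its value was seen. It read 3502 and 1509 in SOCS3 null cells and 7657 and 7324 in wildtype cells. Zfp42 was thus brighter on replicate 1 of both genotypes, unlike Klf2 and Klf3. Among the other ES cell markers, Pou5f1 and Esrrb were also brighter on SOCS3 null replicate 1. Sox2 (2825 and 3940) and Nanog (3646 and 4050) were brighter on SOCS3 null replicate 2. The 5 ES cell markers summed to 22756 and 21012 in SOCS3 null cells and 31170 and 32638 in wildtype cells, and 1 of them, Sox2, fell.

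**Figure D3:**
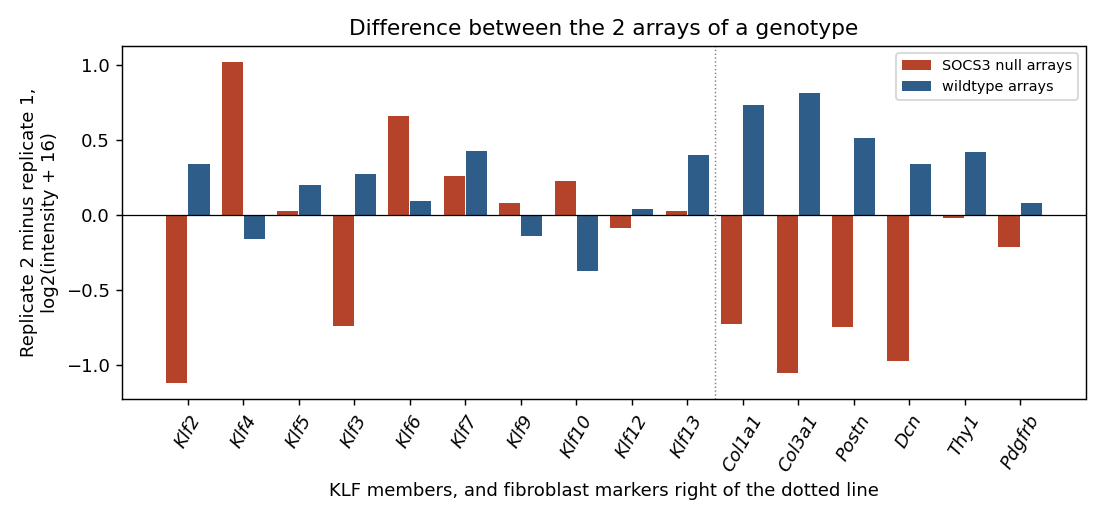
Replicate 2 minus replicate 1 on the log2(intensity + 16) scale within the SOCS3 null arrays (red) and within the wildtype arrays (blue), for the 10 KLF members and, right of the dotted line, for 6 fibroblast markers. The SOCS3 null bars reach -1.12 for Klf2 and 1.02 for Klf4, and those of the collagens Col1a1 and Col3a1 are -0.72 and -1.05, with blue bars of 0.74 and 0.82.

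Among the other genes of the KLF and SP families, which share the zinc fingers, 8 of 15 listed genes were tested, 1 rose and 1 fell, which is near the 22.7% of all genes tested that were called. Sp6 (epiprofin), a factor of tooth and hair epithelium, rose, with 114 and 108 in SOCS3 null cells and 42.4 and 42.0 in wildtype cells, a log2 change of 1.12 (SE 0.08, limma adjusted p = 0.00743). Sp4, known from neurons, fell, with 38.8 and 32.5 in SOCS3 null cells and 60.7 and 63.8 in wildtype cells, a change of -0.60 (SE 0.10, limma adjusted p = 0.0291). Klf15 and Klf11, with log2 differences of 0.66 and -0.24, did not pass. Neither did Sp1, the general GC box factor, at -0.47 (SE 0.17, limma adjusted p = 0.13). The median of the 8 was -0.06. Klf1, Klf14, Klf17, Sp5 and Sp8 lay below the filter, and Klf8 and Sp2 were not analysed here.

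Upstream of the LIF-linked members, 4 of 11 tested genes of the LIF receptor route to STAT3 rose and 2 fell, with a median of 0.42. Of all genes tested, 13.1% were called higher and 9.55% lower. The 2 that fell include the targeted Socs3, whose loss was set by the design. Lifr, the receptor subunit that binds LIF, rose, with 1410 and 1449 in SOCS3 null cells and 672 and 639 in wildtype cells, a change of 1.11. The kinase gene Jak2 read 75.2 and 73.0 in SOCS3 null cells and 34.4 and 34.8 in wildtype cells, a change of 0.83. Stat3 itself did not pass, with a log2 difference of 0.42 (SE 0.11, limma adjusted p = 0.0671). Jak1 and Socs1, named after their values were seen, also rose, by 0.77 and 1.32. Socs1, counted among the 4 that rose, passed the filter on dim values only through the SOCS3 null arrays. Socs2, another feedback inhibitor, changed by -1.53 and the targeted Socs3 by -6.23.

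Other genes that LIF induces also moved in both directions. Of 9 tested, 4 rose, 2 fell and 3 did not pass, with a median log2 change of 0.96. The shares over all genes tested were 13.1% higher and 9.55% lower. Tbx3, a naive-state factor, read 1375 and 1391 in SOCS3 null cells and 390 and 392 in wildtype cells, a change of 1.78 (SE 0.08, limma adjusted p = 0.00459). Tfcp2l1, a STAT3 target of the naive state, rose by 1.23 and Gadd45g, known from stress responses, by 1.77. Junb, an AP-1 subunit named after its value was seen, rose by 1.55 and read 329 and 186 in SOCS3 null cells and 71.9 and 76.4 in wildtype cells. Gbx2, a homeobox gene, changed by -1.03, and Myc, named after its value was seen, by -0.79.

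Of 12 pluripotency genes that act with the LIF-linked KLF factors, 2 rose, 5 fell and 5 did not pass, with a median of -0.66. Among all genes tested 13.1% were called higher and 9.55% lower. Tbx3 and Tfcp2l1 were the 2 that rose. Prdm14, a repressor of differentiation genes, read 42.4 and 44.6 in SOCS3 null cells and 152 and 154 in wildtype cells, a change of -1.51. Tcl1, a coactivator of AKT, changed by -1.83 and the nuclear receptor gene Nr0b1 by -1.36. Sox2 and Nr5a2, named after their values were seen, changed by -1.01 and -0.90. Pou5f1 did not pass, with a log2 difference of -0.01 (SE 0.10, limma adjusted p = 0.975).

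Of 12 cofactors and ubiquitin ligases of KLF proteins 11 were tested, 2 rose and 1 fell, with a median of -0.18, and this too is near the 22.7% called among all genes tested. Sin3b, a scaffold of histone deacetylase complexes, rose by 1.02 and read 1496 and 1637 in SOCS3 null cells and 767 and 757 in wildtype cells. Fbxw7, the substrate receptor of a ubiquitin ligase that acts on Klf5, rose by 0.57 (SE 0.11, limma adjusted p = 0.0349). Kat2b, an acetyltransferase, changed by -0.78 (SE 0.14, limma adjusted p = 0.0354). Ctbp2 and Sin3a, corepressors that Klf3 and Klf10 use, did not pass, with log2 differences of -0.59 and -0.46 and limma adjusted p of 0.0516 and 0.0927.

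**Figure D4:**
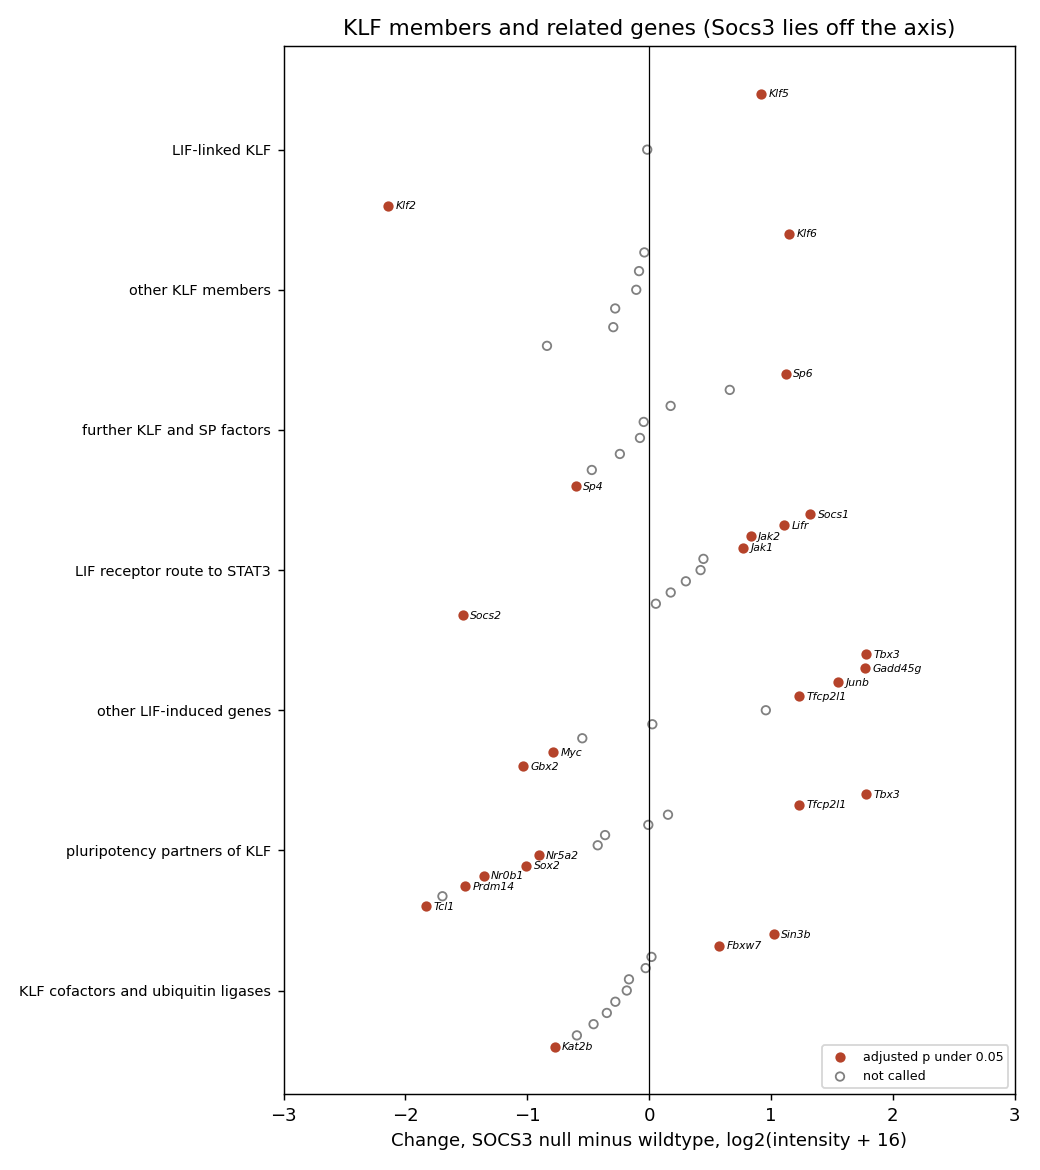
Log2 change (SOCS3 null minus wildtype) of the tested genes of each list on the brightest probe set, with filled red points for an adjusted p under 0.05 over all genes and open grey points for the rest; Socs3 at -6.23 lies off the axis. Called genes stand on both sides of 0 in 6 of the 7 lists, and among the other KLF members Klf6 is the 1 that was called.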

How the data were processed

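The samples were 2 SOCS3 null and 2 wildtype arrays of mouse ES cell RNA. The authors deposited 1 intensity for each of 45101 probe sets and array, on a linear scale. How they were summarised and normalized is not given in the sources used here. Array medians were nearly equal, so values were not normalized again. Equal medians hide any change in RNA per cell. In 19.8% of probe sets, 2 or more arrays held exactly the same value, as in 2 of the 38 KLF probe sets.

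The 64 control probe sets were left out. Symbols came from a platform annotation, and 34741 of the 34945 single-symbol probe sets matched a RefSeq gene table, with 0 symbols changed. Rows with a mean log2(intensity + 16) at or above the 40th percentile (an intensity of about 10.4) were tested with limma 3.58.1 in R 4.3.3 (lmFit, eBayes, genotype as the only term), over 27022 probe sets and over 12732 genes. No detection calls were used. A change is SOCS3 null minus wildtype; the pseudocount of 16 understates changes of dim genes. An exact two-sided permutation test of 2 against 2 arrays cannot go below a p of 0.333 and was not used. The number of arrays limits the precision. The procedure was tested on simulated data.

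Members and lists were chosen with earlier results of these data known. Named genes are all members, Socs3, all called KLF and SP genes and up to 4 called genes of smallest p per list; any other gene was named after its value was seen. Alternatives changed the pseudocount (1, 64), the scaling (quantile, median), the filter (none, 60th percentile), eBayes (trend, robust trend), added replicate blocks, averaged all probe sets of each gene, or left out an array. Figures used matplotlib 3.10.9.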

Additional observations from a re-analysis of the deposited data

How the results depend on the processing

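Over the 11 settings other than leaving out an array, Klf5 was called in 11, with a change of 0.53 to 0.94, Klf2 in 8 (-2.20 to -1.98) and Klf6 in 8 (0.97 to 1.22), and 0 of the 10 members reversed. The 2 members higher became 1 with a pseudocount of 64, after quantile normalization and with no filter. The 1 member lower became 0 with a pseudocount of 64 and with no filter. By probe set, the 3 called higher became 0 with no filter, where more rows were tested, and 6 with a 60th percentile filter. The 0 called lower became 1 with pseudocounts of 1 and 64, with no filter and with the 60th percentile filter, 3 with the trend and 2 with the robust trend. With no filter 1631 of all genes were called, against 2888.

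The labels give both genotypes replicates 1 and 2, and deviations of same-numbered arrays correlated at -0.118 over probe sets, so the numbers were not taken as pairs. With the replicate number as a block, 1914 of all genes were called and the 1 member lower became 0 (Klf2 at an adjusted p of 0.0594). With a crossed block, chosen after seeing the data, 2 members were lower, Klf2 and Klf3, and 1 probe set was called lower.

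With any 1 array left out, 1 residual degree of freedom was left and the other genotype alone gave the spread; limma then called 0 of all genes (range 0 to 0), Socs3 included, so also 0 members and 0 KLF probe sets in each direction. At an unadjusted p under 0.05, 1 to 5 members passed there, which says nothing about stability. The change of Klf2 ran from -2.70 to -1.58, of Klf5 from 0.82 to 1.02, of Klf6 from 0.82 to 1.48 and of Klf3 from -1.21 to -0.47. Directions reversed for Klf4 (-0.53 to 0.50; 0.06 without wildtype replicate 1), Klf7 (-0.30 to 0.13; 0.05 without SOCS3 null replicate 1) and Klf13 (-0.24 to 0.16), none of them called; the cause was not tested.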
